A study of Astyanax mexicanus with 6 samples.

Results

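The proteasome genes of 2 liver-derived cell lines of the Mexican tetra, Astyanax mexicanus, were compared by bulk RNA-seq. They were chosen by a rule on names, with earlier results of these data known. The rule took every row whose lower-case symbol begins with psm, a letter from a to g and a digit. These were 57 of the 27420 genes in the table. Of these, 6 belonged to the immunoproteasome set (psmb8 to psmb13) and 49 were constitutive subunits, activators, inhibitors or assembly factors. The remaining 2 rows, psmc3ip and psme3ip1, share the letters but encode partner proteins and not subunits of the particle. Of the 57 rows, 55 passed the filter on low values, which asked for 0.2 TPM in any library, and were tested. TPM is a gene's share of all transcripts in a library, corrected for gene length and scaled to the same total in each. The tested genes ranged from 1.86 to 1418 TPM, so none of them passed the filter through 1 line only.

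The proteasome is the barrel-shaped protease that degrades proteins tagged with ubiquitin. Its core, the 20S particle, stacks outer rings of alpha subunits, which gate the channel, on inner rings of beta subunits, of which beta1, beta2 and beta5 carry the catalytic sites. The 19S regulatory particle caps the core: its base holds the ATPases that unfold the substrate, and its lid removes the ubiquitin chain. Interferon induces alternative catalytic subunits, encoded by psmb8, psmb9 and psmb10, which replace their constitutive counterparts in new particles called immunoproteasomes and change which peptides are cut for display on MHC class I molecules. In teleost fish such genes lie together with the peptide transporter gene tap2 in the MHC class I region. In the liver the particle serves the turnover of short-lived and damaged proteins, and hepatocytes can take up immunoproteasome subunits into it under interferon.

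SFL denotes the line from the liver of surface fish, and CFL the line from the liver of Pachón cavefish. Both came from fish of about 150 days post fertilization (5 months), both are clonal populations obtained by serial dilution, and per the study's methods the Pachón fish were starved before dissection and the surface fish were not. The labels give 3 SFL libraries, at passage 45 (replicate 1) and passage 46 (replicates 2 and 3), and 3 CFL libraries, at passage 50 (replicate 1) and passage 51 (replicates 2 and 3). Both lines were grown in a serum-containing medium with insulin and epidermal growth factor, which in the first passages also held embryo extract, from surface fish for SFL and from Pachón fish for CFL, and the labels name no treatment. The paper reports that SFL had the chromosome count of the species, while CFL was hyperdiploid. It also found B chromosomes in CFL, from which it proposes a male donor, and could not test the sex of SFL. Because each line is 1 clone, the p-values measure the spread between libraries of that clone and not between fish. Passage, starvation of the donor fish, the embryo extract of the first passages, chromosome number, any difference in donor sex and line cannot be told apart.

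Each library held 13254 to 13721 genes at 1 TPM or more, and depth is unknown because TPM holds no counts. The label of the tissue is liver, but hepatocyte markers were low: of 9 found in the table, 5 were below 1 TPM in every library, among them hnf4a (at most 0.04 TPM) and fabp10a (at most 0.20 TPM), ttr was listed at 0 in all 6 libraries, and the 9 summed to 10.6 to 19.6 TPM in SFL and 0.38 to 0.58 TPM in CFL. In bulk RNA, fewer cells of a type and less RNA per cell cannot be told apart. Differences below are log2 fold changes (log2FC) of TPM + 1, SFL over CFL, from limma, each given with its standard error where one follows ±, and with p-values adjusted by the Benjamini-Hochberg method over all 18489 genes tested; a gene passed the test at an adjusted p under 0.05, and it was called differentially expressed if the fold change was also at least 2.

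The proteasome genes as a whole took a like share of the transcripts in both lines, and a few members stood apart from the rest. Together they made up 1.08%, 1.46% and 1.17% of all TPM in SFL, against 1.39%, 1.29% and 1.25% in CFL, with overlap between the lines. Of the 55 tested members, 3 passed the test with higher values in SFL (psmb6, psmc6 and psmg1) and 8 with lower values (psmb8a, psmb9a, psmb13a, psma6l, psma1, psmb5, psme1 and psmd10). Over all genes tested, 19.5% passed with higher and 15.2% with lower values in SFL, so the members that passed, 11 of 55, were a smaller share than in the background. With the fold threshold, 1 member (psmb6) was higher and 5 (psmb8a, psmb9a, psmb13a, psma6l and psmd10) were lower in SFL, where 11.7% of all genes were higher and 8.88% lower. The median log2FC of the 55 members was 0.03, beside 0.07 over all genes. The 3 SFL libraries lay above all CFL libraries in 13 members and below them in 10, where 29.8% and 23.1% of all genes did so.

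**Figure D1:**
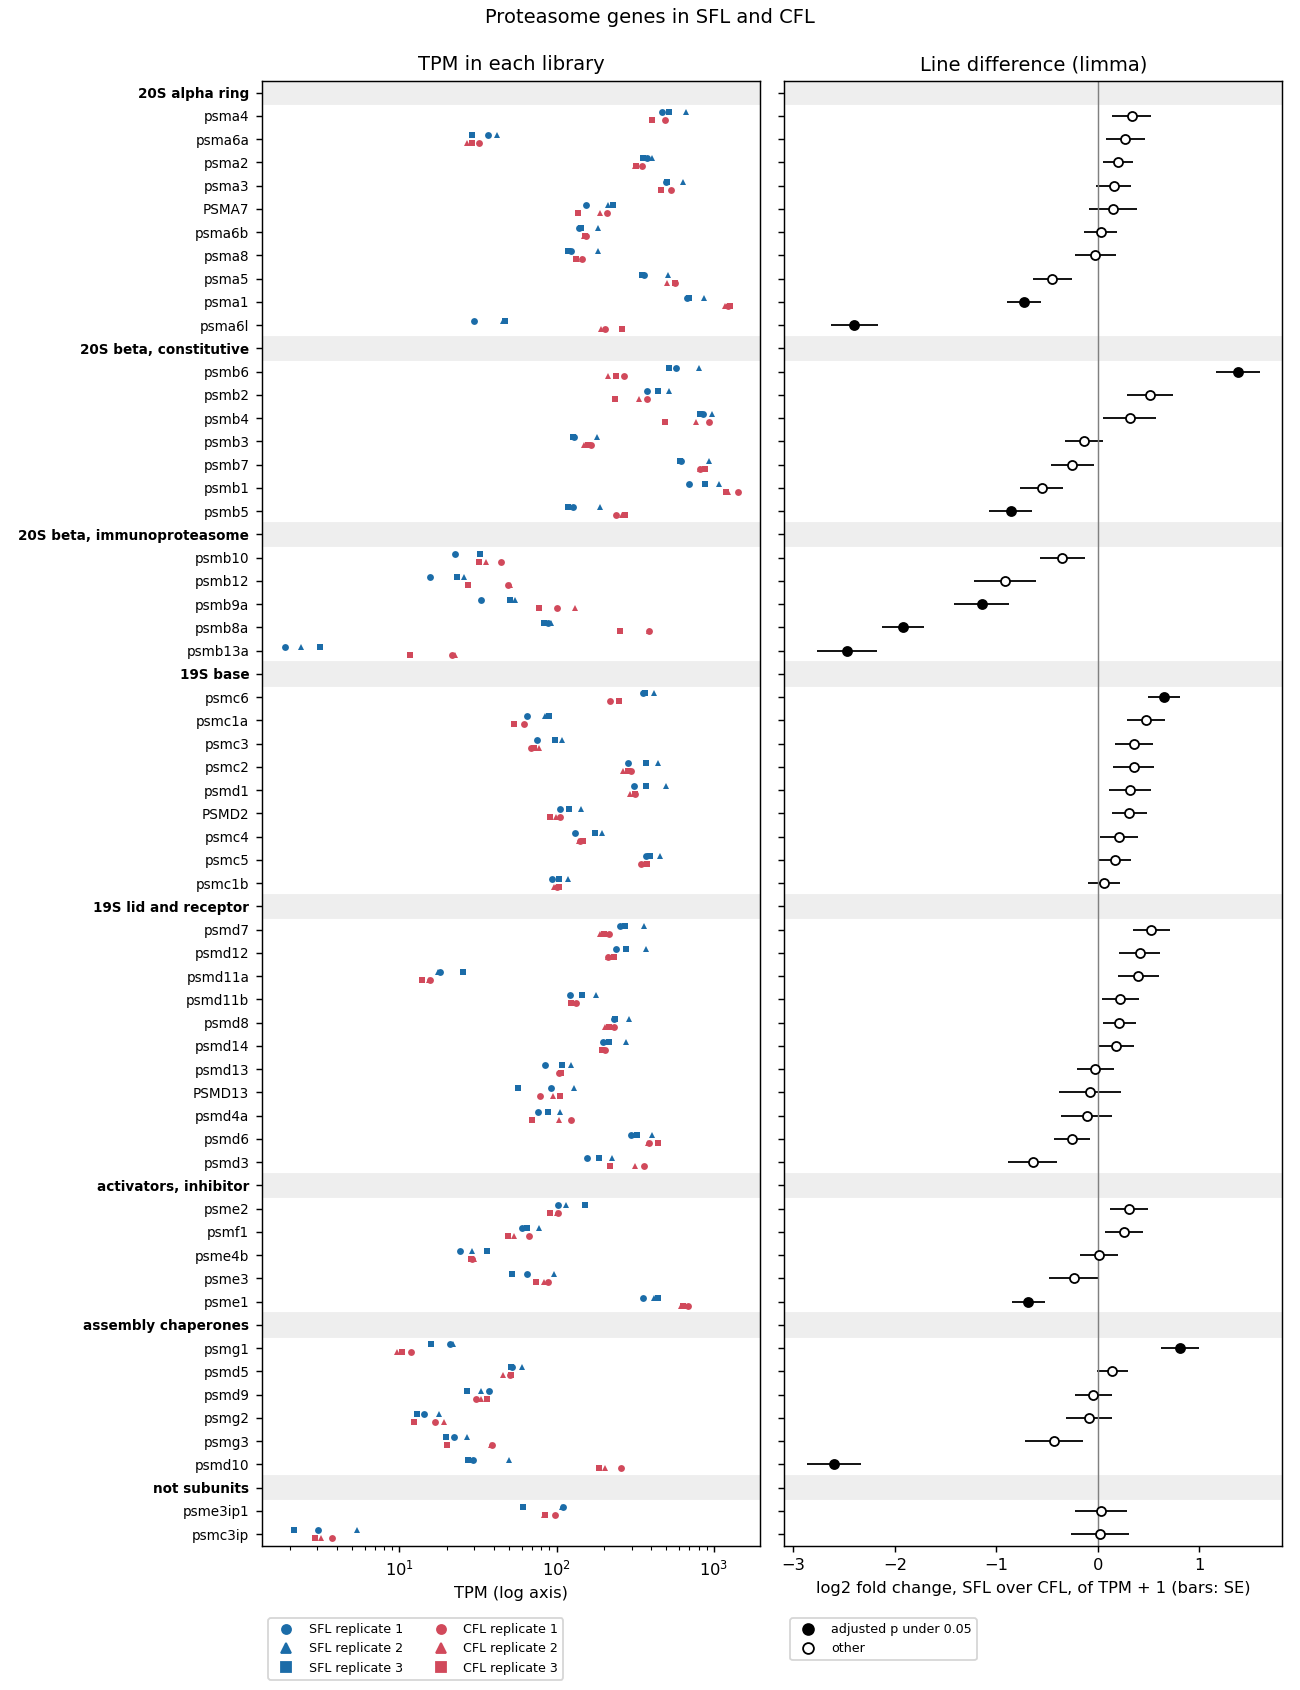
TPM of the 55 tested proteasome genes in each library (left, log axis; colour marks the line, shape the replicate) and their log2 fold changes, SFL over CFL, with standard errors (right; filled points have an adjusted p under 0.05), grouped by role. Most differences lie near 0, and psmb13a, psmb8a, psma6l and psmd10 stand far to the left with psmb6 to the right.

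The 5 calls of psma6l, psmb6, psmb8a, psmb13a and psmd10 passed the test with any 1 library left out and in the later passages alone. Without CFL replicate 1, the count fell to 2 members higher and 4 lower in SFL, and without CFL replicate 2 it was 1 higher and 4 lower. Without SFL replicate 2, the median over the members was -0.03 and 13 members passed, 3 higher and 10 lower. That library was the highest of the 3 SFL libraries in 45 of the 55 members, where it was the highest in 34.3% of all genes tested.

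Of the 6 immunoproteasome genes, psmb8a, psmb9a and psmb13a were lower in SFL than in CFL, psmb12 and psmb10 did not pass the test and psmb11b was not tested. Over all genes tested, 15.2% passed with lower values in SFL. The log2FC of all 5 tested immunoproteasome genes was below 0, with a median of -1.15, where 9992 of all 18489 genes tested were above 0. psmb8a (ENSAMXG00000014118), the inducible form of the beta5 subunit with chymotrypsin-like activity, had 88.8, 92.7 and 82.7 TPM in SFL, against 386, 387 and 254 TPM in CFL. Every SFL library was far below every CFL library, and psmb8a had a log2FC of -1.92 ± 0.21 (adjusted p = 0.000908). It was the most abundant gene of the set in both lines, and its log2FC lay between -2.12 and -1.82 with any 1 library left out.

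psmb9a (ENSAMXG00000014090), the inducible form of the beta1 subunit, had 32.9, 54.3 and 50.4 TPM in SFL, against 100.2, 131 and 77.3 TPM in CFL. The lines did not overlap, and the log2FC was -1.15 ± 0.27 (adjusted p = 0.0190). This call was lost without CFL replicate 1 (adjusted p = 0.0669), without CFL replicate 2 (adjusted p = 0.0770) and in the later passages alone (adjusted p = 0.127). psmb10 (ENSAMXG00000036130), the inducible form of the beta2 subunit with trypsin-like activity, had 22.5, 32.8 and 32.6 TPM in SFL, against 44.6, 35.7 and 31.95 TPM in CFL. These ranges overlapped, and the log2FC of -0.35 ± 0.22 did not pass (adjusted p = 0.257).

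The fish genes psmb12 and psmb13a encode further beta subunits of the MHC region; they are named by symbol, and no sequence was compared. psmb13a (ENSAMXG00000014076) had 1.86, 2.35 and 3.13 TPM in SFL, against 21.5, 22.7 and 11.8 TPM in CFL. It was the least abundant gene of the tested set in both lines and had its largest difference, with a log2FC of -2.48 ± 0.29 (adjusted p = 0.00131). psmb12 (ENSAMXG00000014107) had 15.7, 25.9 and 23.3 TPM in SFL, against 49.3, 50.3 and 27.3 TPM in CFL. The lines did not overlap here either, but the log2FC of -0.91 ± 0.31 missed the threshold (adjusted p = 0.0572), and it passed without CFL replicate 3 (adjusted p = 0.0274) and with median-ratio (0.0282) or quantile scaling (0.0266). psmb11b (ENSAMXG00000041727), related to the thymus-specific beta5 subunit of mammals, was listed at 0 in all 6 libraries.

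The summed TPM of the immunoproteasome genes was 187 ± 23.5 TPM in SFL and 543 ± 123.1 TPM in CFL (SD, n = 3 each), a ratio of 0.345. psmb8a made up much of this sum, and without it the ratio was 0.494. CFL replicate 3 was the lowest CFL library in all 5 tested genes of the set, where it was the lowest in 41.6% of all genes tested, and its sum of 402 TPM compares with 602 and 627 TPM in CFL replicates 1 and 2. That library still lay above the highest SFL sum of 208 TPM.

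**Figure D2:**
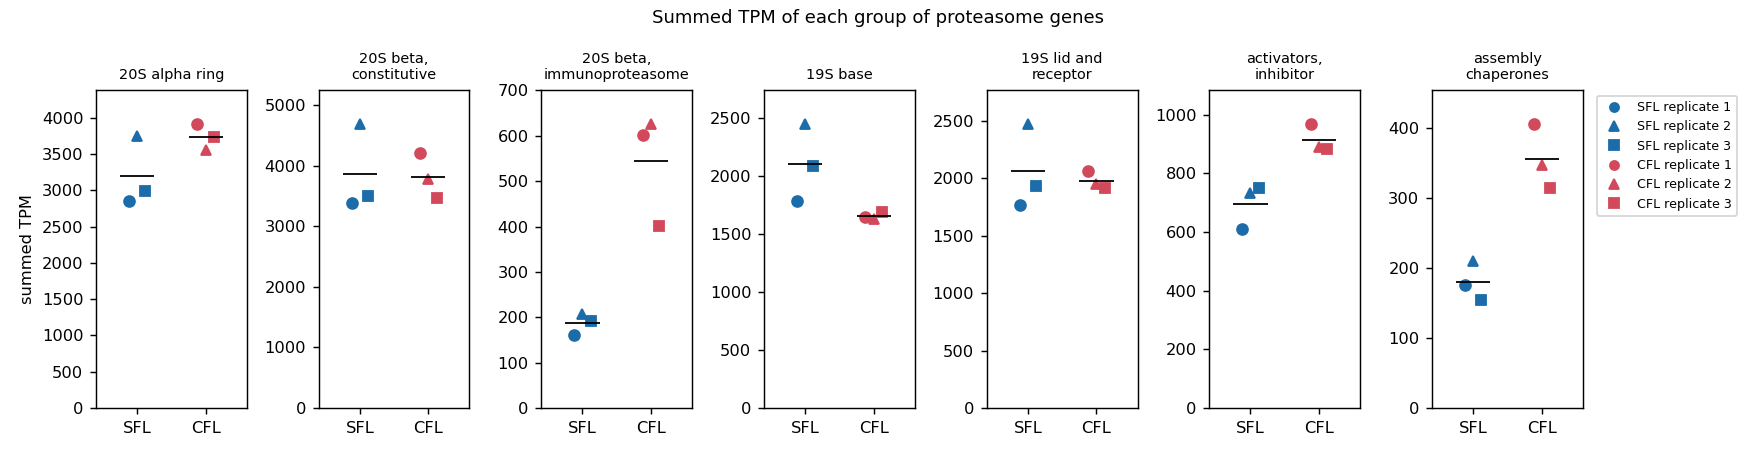
Summed TPM of 7 groups of proteasome genes in each library of SFL and CFL (linear axes from 0; colour marks the line, shape the replicate, and the line the mean). The immunoproteasome sums lie at 162 to 208 TPM in SFL and 402 to 627 TPM in CFL, while the sums of the constitutive beta subunits overlap.

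The constitutive catalytic subunits did not move as 1 block. psmb6 (ENSAMXG00000002691), the beta1 subunit with caspase-like activity, had 575, 810.1 and 517 TPM in SFL, against 267, 213 and 237 TPM in CFL. It was the only member higher in SFL by the fold threshold, with a log2FC of 1.38 ± 0.22 (adjusted p = 0.00381). psmb5 (ENSAMXG00000033908), the constitutive beta5 subunit and the target of the inhibitor bortezomib, had 127, 188 and 119 TPM in SFL, against 240.2, 261 and 271 TPM in CFL. It was lower in every SFL library, with a log2FC of -0.86 ± 0.21 (adjusted p = 0.0211). The call of psmb5 was lost without SFL replicate 1 (adjusted p = 0.0604), without CFL replicate 1 (0.0583), without CFL replicate 2 (0.0821), without CFL replicate 3 (0.0694) and in the later passages alone (0.132). psmb7 (ENSAMXG00000036576), the beta2 subunit with trypsin-like activity, had 616, 934 and 606 TPM in SFL, against 814, 821 and 878 TPM in CFL, and its log2FC of -0.25 did not pass (adjusted p = 0.389).

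The inducible and constitutive forms of a catalytic subunit compete for the same place in the ring. Each tested immunoproteasome gene was therefore also set beside a constitutive partner within each library, which does not depend on the scaling between libraries. psmb9a made up 5.40%, 6.28% and 8.89% of the TPM of psmb9a and psmb6 in SFL, against 27.3%, 38.0% and 24.6% in CFL. This was the widest gap in percentage points of the 5 pairs, and both genes of the pair moved, in opposite directions. psmb8a made up 38.4 ± 4.67% of psmb8a and psmb5 in SFL and 56.6 ± 7.20% in CFL (SD, n = 3 each); both genes of that pair were lower in SFL. psmb13a, whose match to psmb7 was not checked by sequence, made up 0.355 ± 0.140% of psmb13a and psmb7 in SFL and 2.20 ± 0.759% in CFL (SD, n = 3 each). psmb12, set beside psmb6 by choice, made up 3.35 ± 0.857% in SFL and 15.01 ± 4.44% in CFL (SD, n = 3 each).

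The log2 ratio to the partner differed by -2.55 for psmb9a, -1.07 for psmb8a, -2.65 for psmb13a and -2.33 for psmb12 (SFL minus CFL), and the lines did not overlap in any of these 4 pairs. Each had a two-sided exact permutation p of 0.1, the smallest that 3 against 3 libraries allow (0.125 adjusted over the 5 pairs), so none can reach the threshold. The pairs of psmb9a and psmb12 share the partner psmb6, itself higher in SFL (log2FC 1.38), and so are not separate observations. psmb12 alone had a log2FC of -0.91 and did not pass. For psmb10 and psmb7 the shares overlapped, at 4.01 ± 0.955% in SFL and 4.29 ± 0.847% in CFL (SD, n = 3 each), with a log2 difference of -0.11 (two-sided exact permutation p = 0.6).

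**Figure D3:**
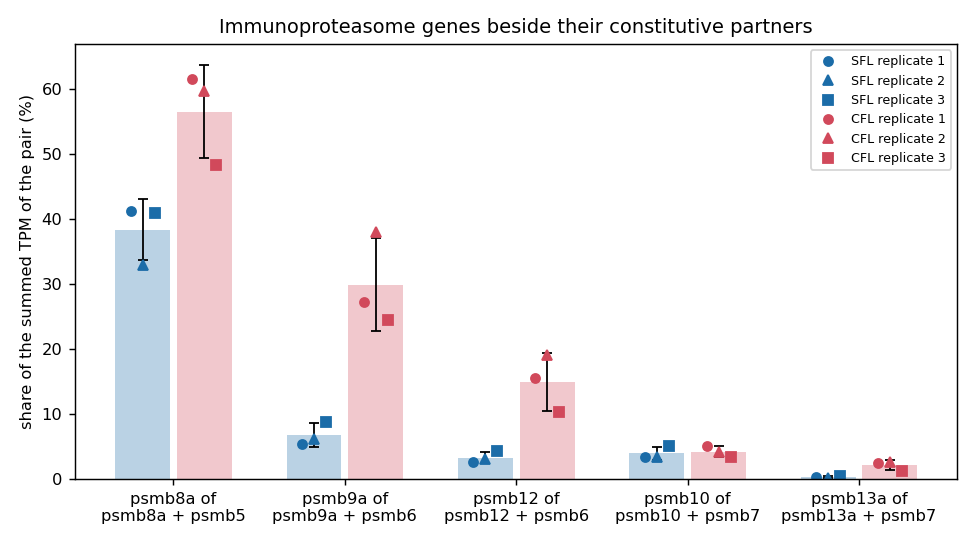
Share of each immunoproteasome gene in the summed TPM of itself and a constitutive partner, in percent, for SFL (left bar) and CFL (right bar) of each pair; bars are means, error bars SD (n = 3 each), points libraries. In SFL the share of psmb9a is 6.86% and in CFL 30.0%, while the shares of psmb10 overlap.

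The other constitutive beta subunits, psmb1 to psmb4, shape the ring without a catalytic site, and none of the 4 passed the test. psmb1 came nearest, with 694, 1081 and 875 TPM in SFL, against 1418, 1229.7 and 1192 TPM in CFL. The lines did not overlap, and the log2FC was -0.55 (adjusted p = 0.0814; 0.0424 without SFL replicate 2). psmb2 leaned the other way without passing, at 377, 516 and 440 TPM in SFL and 375, 334 and 234 TPM in CFL, with a log2FC of 0.51 (adjusted p = 0.126). Summed over the 7 constitutive beta genes, TPM was 3854 ± 726 in SFL and 3817 ± 377 in CFL (SD, n = 3 each), a ratio of 1.01.

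In the alpha ring, 2 of 10 genes passed, both lower in SFL, where 15.2% of all genes tested passed with lower values. The median of the 10 was 0.09. psma6l (ENSAMXG00000020935), annotated as a psma6-like gene, had 29.9, 45.4 and 47.0 TPM in SFL, against 203, 190.3 and 259 TPM in CFL. The gap between the lines was wide, and the log2FC was -2.40 ± 0.23 (adjusted p = 0.000566). psma1 (ENSAMXG00000015455), the most abundant alpha subunit in both lines, had 673, 872 and 698 TPM in SFL, against 1235, 1178 and 1267 TPM in CFL. Its log2FC was -0.72 ± 0.17 (adjusted p = 0.0173), and the call was lost without CFL replicate 1 (0.0580), CFL replicate 2 (0.0656) or CFL replicate 3 (0.0531), and in the later passages alone (0.124).

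The 3 psma6 genes are copies of 1 subunit and differed in how they were used. psma6l gave 17.6 ± 3.60% of their summed TPM in SFL and 54.5 ± 4.01% in CFL (SD, n = 3 each). psma6b, the main copy in SFL, gave 66.8 ± 1.44% in SFL and 38.1 ± 3.35% in CFL, while its own level was 155 ± 24.5 TPM in SFL and 151 ± 2.26 TPM in CFL (SD, n = 3 each; log2FC 0.03, adjusted p = 0.907). psma6a had 36.8, 42.0 and 28.9 TPM in SFL and 31.9, 27.1 and 28.9 TPM in CFL, with a log2FC of 0.27 (adjusted p = 0.302). The sum of the 3 was 232 ± 34.3 TPM in SFL and 398 ± 37.5 TPM in CFL (SD, n = 3 each). Reads of similar copies can be split unevenly between them, so the levels of single copies are less certain than their sum. psma4 had the highest log2FC of the ring, 0.34, and did not pass (adjusted p = 0.211). The pair PSMA7 and psma8, close relatives that fill the same place in the ring, kept like shares: psma8 gave 41.7 ± 6.48% of the pair in SFL and 44.6 ± 4.15% in CFL (SD, n = 3 each).

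In the 19S base, 1 of 9 genes passed, with higher values in SFL, where 19.5% of all genes tested did so. psmc6 (ENSAMXG00000034638), an ATPase of the base, had 353, 416 and 366 TPM in SFL, against 219, 250.2 and 251 TPM in CFL. All SFL libraries were above all CFL libraries, with a log2FC of 0.65 ± 0.16 (adjusted p = 0.0183). The call of psmc6 was lost without CFL replicate 1 (0.0645) or CFL replicate 2 (0.0652), and in the later passages alone (0.0937). The fold changes of all 9 base genes were above 0, as were those of 9992 of all 18489 genes tested. The median of the base genes was 0.32, and 0.21 with median-ratio scaling. The lowest was that of psmc1b, at 0.06 (adjusted p = 0.786), and with median-ratio or quantile scaling psmc1b fell below 0.

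The base genes are the psmc ATPases and the scaffold subunits psmd1 and PSMD2. PSMD2 had 106, 143 and 119.8 TPM in SFL, against 105, 98.6 and 90.5 TPM in CFL, without overlap but without passing (adjusted p = 0.203). psmc5, the most abundant, had 371, 455 and 392 TPM in SFL and 345, 360.0 and 374 TPM in CFL, with overlap (adjusted p = 0.421). psmc1a, the least abundant, had 64.9, 83.8 and 89.8 TPM in SFL and 62.2, 53.3 and 53.8 TPM in CFL; its log2FC of 0.48 missed the threshold (adjusted p = 0.0854) and passed without SFL replicate 1 (0.0403). The sum over the base was 1788, 2455 and 2088 TPM in SFL, against 1652, 1631 and 1694 TPM in CFL, a ratio of means of 1.27. SFL replicate 2, the highest SFL library in 8 of the 9 genes, led this sum, and without it the median log2FC was 0.20.

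In the 19S lid and its ubiquitin receptor psmd4a, 0 of the 11 tested genes passed by limma, with 1 higher and 1 lower in SFL at an unadjusted p under 0.05. Over all genes tested, 19.5% passed with higher and 15.2% with lower values in SFL. The one nearest to passing with higher values was psmd7, with 254, 359 and 271 TPM in SFL, against 215, 190.1 and 201 TPM in CFL (log2FC 0.53, adjusted p = 0.0640). Nearest with lower values was psmd3, with 156, 224 and 187 TPM in SFL, against 358, 315 and 219 TPM in CFL (log2FC -0.64, adjusted p = 0.0820; 0.0439 without CFL replicate 3). These point in opposite directions, and the sum over the lid was 2060 ± 370 TPM in SFL and 1977 ± 75.2 TPM in CFL (SD, n = 3 each). psmd14, the enzyme that cuts ubiquitin chains off at the lid, had 197, 275 and 214 TPM in SFL and 203, 203 and 194 TPM in CFL, with overlap (log2FC 0.18, adjusted p = 0.455). psmd6 was the most abundant lid gene, at 342 ± 55.4 TPM in SFL and 404 ± 34.7 TPM in CFL (SD, n = 3 each), and psmd11a the least abundant of those tested, at 18.1, 17.6 and 25.6 TPM in SFL and 15.7, 15.5 and 13.8 TPM in CFL. The symbol psmd13 stands on 2 rows of near-equal level, and psmd11b on 2 rows of which the second reached at most 0.13 TPM and was not tested, so the values of these symbols are uncertain.

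Of the activators and the inhibitor, 1 of 5 passed, with lower values in SFL, where 15.2% of all genes tested did so. psme1 (ENSAMXG00000039644), a subunit of the PA28 cap that interferon induces in mammals, had 357, 415 and 444 TPM in SFL, against 684, 621 and 641 TPM in CFL. It was lower in every SFL library, with a log2FC of -0.68 ± 0.16 (adjusted p = 0.0170), and the call was lost without CFL replicate 1 (0.0610) or CFL replicate 2 (0.0629) and in the later passages alone (0.116). Its partner in the same cap, psme2 (ENSAMXG00000036909), did not follow it, with 102.15, 115 and 151 TPM in SFL and 101, 101 and 90.7 TPM in CFL. All SFL values of psme2 lay above those in CFL, by little in SFL replicate 1, and the log2FC of 0.31 did not pass (adjusted p = 0.241).

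The nuclear cap gene psme3, with a log2FC of -0.24, and psmf1, which encodes the inhibitor PI31, with 0.26, overlapped between the lines. psme4b, the least abundant of the group, encodes the PA200 activator and had 24.4, 28.8 and 36.0 TPM in SFL and 28.8, 30.0 and 28.5 TPM in CFL. Over the 5 genes the sum was 697 ± 76.8 TPM in SFL and 914 ± 48.1 TPM in CFL (SD, n = 3 each), a ratio of 0.763 that turned to 1.1005 without psme1.

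Among the 6 assembly chaperones, 1 gene was higher and 1 lower in SFL, where 19.5% of all genes tested were higher and 15.2% lower. psmd10 (ENSAMXG00000044092), which encodes gankyrin, a chaperone of the 19S base that is known in mammals as a liver oncoprotein, had 29.4, 49.9 and 27.4 TPM in SFL, against 258, 202 and 185 TPM in CFL. It had a log2FC of -2.60 ± 0.27 (adjusted p = 0.000747), close to that of psmb13a, which was the larger of the 2 with pseudocounts of 0.1 (-2.85 for psmb13a and -2.63 for psmd10) and 0.5 (-2.67 and -2.62) and without CFL replicate 3 (-2.76 and -2.70) or SFL replicate 3 (-2.61 and -2.44). The other chaperones of the base, psmd5 and psmd9, had log2FCs of 0.15 (adjusted p = 0.487) and -0.04 (adjusted p = 0.868). psmg1 (ENSAMXG00000041801), a chaperone of the alpha ring, had 20.9, 21.9 and 15.9 TPM in SFL, against 11.8, 9.68 and 10.5 TPM in CFL. It was higher in every SFL library, with a log2FC of 0.81 ± 0.19 (adjusted p = 0.0178), and the call was lost without CFL replicate 2 (0.0807) or CFL replicate 3 (0.0547) and in the later passages alone (0.102).

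psmg2, which pairs with psmg1 in the same chaperone, had 14.3, 17.9 and 12.9 TPM in SFL and 16.8, 19.3 and 12.3 TPM in CFL, with overlap (adjusted p = 0.782). psmg3, of the second alpha ring chaperone, had 22.2, 26.8 and 19.8 TPM in SFL and 38.8, 38.1 and 19.98 TPM in CFL, also with overlap (adjusted p = 0.283). The sum over the chaperones had a ratio of 0.505, and of 1.02 without psmd10. The 2 name matches that are not subunits differed little: psme3ip1 had a log2FC of 0.03 and psmc3ip of 0.02, and 0 of them passed by limma at an adjusted or an unadjusted p under 0.05.

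Position along the chromosome set 4 of the immunoproteasome genes together. In the RefSeq annotation of the AstMex3_surface assembly, used only for the order of genes, psmb9a, psmb12, psmb13a and psmb8a follow each other without a gene between them, with tap2a on one side and tapbp.1, which encodes tapasin, on the other. The window of 5 genes on each side was chosen after values had been seen. tap2a (ENSAMXG00000014061), a subunit of the peptide transporter that feeds MHC class I molecules, had 0.05, 0 and 0.06 TPM in SFL, against 24.8, 34.2 and 15.6 TPM in CFL, with a log2FC of -4.57 ± 0.29 (adjusted p = 0.000101). This row passed the filter of 0.2 TPM through CFL alone, and the size of its log2FC depends on the pseudocount. A second row with the same symbol had 0.10, 0.21 and 0.21 TPM in SFL, against 4.70, 6.39 and 3.09 TPM in CFL. Rows were matched to the gene order by symbol, so which tap2a row lies beside the run was not known.

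Outside the run of beta subunit genes, tap2a alone passed the test among the measured genes of this window. brd2a, next to tap2a, had 46.9, 45.2 and 44.5 TPM in SFL, against 84.0, 95.4 and 52.0 TPM in CFL, without overlap (log2FC -0.70, adjusted p = 0.0650). It passed without CFL replicate 3 (0.0146) and with median-ratio (0.0372) or quantile scaling (0.0361). tapbp.1 had 15.4, 18.1 and 34.4 TPM in SFL and 55.5, 46.1 and 25.9 TPM in CFL, with overlap (adjusted p = 0.116), and passed without SFL replicate 3 (0.0416). daxx had a log2FC of -0.65 and did not pass (adjusted p = 0.0942), but passed without CFL replicate 3 (0.0390). The log2FC was 0.08 for hsd17b8, 0.14 for rxrba and -0.16 for zbtb22b, none of which passed. psmb10, which overlapped between the lines, had no place under that symbol in the gene order used, so where it lies relative to this run was not known.

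**Figure D4:**
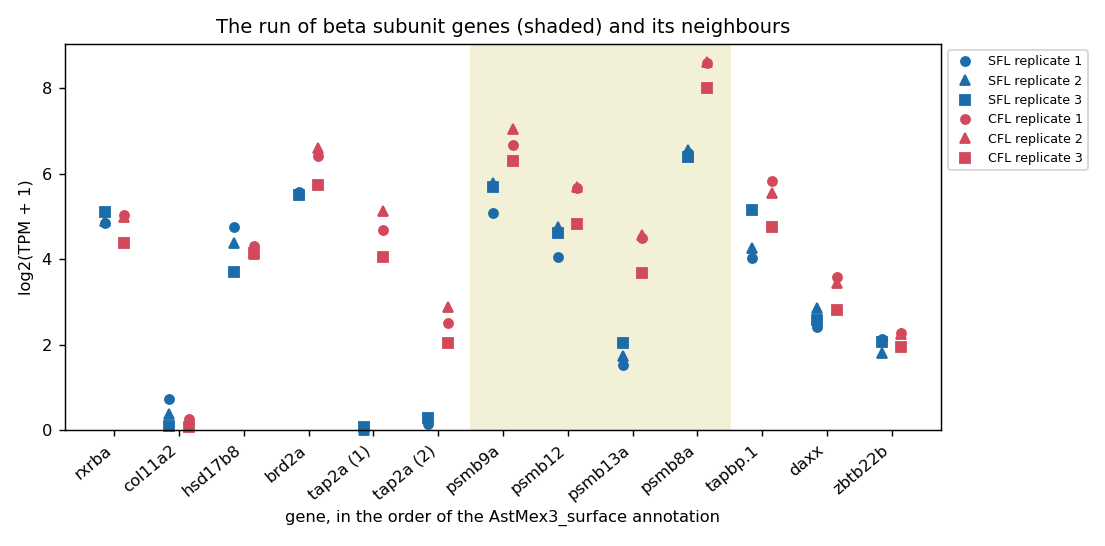
Expression, as log2(TPM + 1), of the 4 neighbouring beta subunit genes (shaded) and the genes around them in annotation order, in each library of SFL (left points) and CFL (right points). The rows tap2a (1) and tap2a (2) share that symbol, and which of them lies at this place was not known. SFL lies below CFL across the shaded run, tap2a and brd2a, and the lines overlap at rxrba, col11a2, hsd17b8, tapbp.1, daxx and zbtb22b.

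Lists of other genes of the pathway, chosen with earlier results of these data known, were read beside these differences. Each list is set against all genes tested, of which 19.5% passed with higher and 15.2% with lower values in SFL, with a median log2FC of 0.07. A list for MHC class I presentation also held brd2a, the neighbour of tap2a, and brd2b, which are not presentation genes and did not pass. Of 15 genes tested on this list, 1 was higher in SFL (lnpep, an aminopeptidase) and 5 were lower, and the list's median was -0.57. The 5 were both tap2a rows, b2ml (beta-2-microglobulin, 258, 281 and 625 TPM in SFL, against 812, 1023 and 1074 TPM in CFL), and the chaperones canx and pdia3, with log2FCs of -1.73 and -1.16. tap1, the other transporter subunit, had 12.5, 16.4 and 19.6 TPM in SFL and 18.7, 18.9 and 14.2 TPM in CFL, with overlap. tap2t, a further tested row with a tap2 symbol, did not share the difference of the tap2a rows. It had 5.59, 5.93 and 5.85 TPM in SFL and 4.68, 5.64 and 4.09 TPM in CFL, with overlap (log2FC 0.23, adjusted p = 0.343). The call of lnpep was lost without any 1 library other than SFL replicate 1 (adjusted p 0.0590 to 0.122), and that of b2ml without any 1 library other than SFL replicate 3 (0.0552 to 0.0849); in the later passages alone both had an adjusted p of 0.123.

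Of 31 genes tested on an interferon list, 2 were higher (ifngr1 and jak1) and 18 lower in SFL, with a median of -1.49. Several of the lower rows carry 1 symbol, isg15, so the counts are of rows and not of separate symbols. The rows mxe (at most 0.13 TPM in SFL) and isg15 ENSAMXG00000039531 (0 TPM in SFL) passed the filter through CFL alone. Among those that did not pass were stat1a (log2FC -0.57, adjusted p = 0.105), jak2a (0.007, 0.984) and socs1a (0.26, 0.683), and rsad2 reached at most 0.04 TPM. A second row with the jak1 symbol, JAK1 (ENSAMXG00000018785), leaned the other way without passing. It had 5.93, 3.67 and 8.92 TPM in SFL and 12.8, 12.3 and 7.99 TPM in CFL, with overlap (log2FC -0.79, adjusted p = 0.103). stat1b, which carries the interferon signal to the nucleus, had 0.15, 0.48 and 0.45 TPM in SFL, against 57.4, 56.6 and 22.1 TPM in CFL, and irf1b, an activator of immunoproteasome genes in mammals, had 6.10, 3.06 and 10.7 TPM in SFL, against 111, 44.9 and 16.3 TPM in CFL. The call of stat1b held with any 1 library left out, while that of irf1b was lost without SFL replicate 1 (adjusted p = 0.0720), SFL replicate 2 (0.0893), CFL replicate 1 (0.0702) or CFL replicate 2 (0.0922) and in the later passages alone (0.148). CFL replicate 3 was the lowest CFL library in 24 of these 31 genes, as in the 5 immunoproteasome genes. The count of lower genes was 14 to 20 with 1 library left out, the call of jak1 was lost whichever library was left out (adjusted p 0.0525 to 0.125), and ifngr1 did not pass without SFL replicate 1 (0.0795), SFL replicate 3 (0.0812), CFL replicate 1 (0.0988) or CFL replicate 2 (0.103).

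White blood cells, which carry immunoproteasomes without interferon, were checked by a list of leukocyte markers. Of 18 rows, 16 were below 1 TPM in every library and 4 were at 0 in all, and PTPRC, the pan-leukocyte marker CD45, reached at most 0.21 TPM. The list summed to 22.4 to 33.6 TPM in SFL and 43.4 to 114 TPM in CFL, nearly all of it from 1 MPEG1 row with 28.2, 21.3 and 32.8 TPM in SFL and 46.02, 41.7 and 112 TPM in CFL (adjusted p = 0.0663). Of the 7 tested, 0 were higher by limma (0 also at an unadjusted p under 0.05) and 1 (csf1ra, at most 1.01 TPM) was lower in SFL. The part of cells with MPEG1 in the immunoproteasome values was not tested.

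Of 17 tested proteasome partners outside the name pattern, 2 were higher in SFL (zfand5b, a stimulator of the particle, with 57.2, 63.3 and 138 TPM in SFL against 19.7, 24.4 and 18.9 TPM in CFL, and ecpas, the scaffold ECM29) and 2 were lower (akirin2, which brings proteasomes into the nucleus, and ubxn1, a ubiquitin-binding factor). A second row with the akirin2 symbol, AKIRIN2 (ENSAMXG00000040898), did not pass (log2FC -0.09, adjusted p = 0.738), nor did zfand5a (0.48, adjusted p = 0.3005). The genes that passed in either direction made up 23.5% of the list, where 19.5% of all genes tested were higher and 15.2% lower. The list's median was 0.29. With 1 library left out, 1 or 2 genes were higher and 0 to 2 lower, and without CFL replicate 2 the counts were 1 and 0. zfand5b passed with any 1 library left out, while the calls of akirin2 (adjusted p = 0.0588), ubxn1 (0.0889) and ecpas (0.118) were lost without CFL replicate 2, those of ubxn1 (0.0834) and ecpas (0.102) also without CFL replicate 1, that of ubxn1 without SFL replicate 1 (0.0521), and that of ecpas without SFL replicate 2 (0.0651), SFL replicate 3 (0.0544) or CFL replicate 3 (0.101). The receptor adrm1, with a log2FC of 0.28, and the maturation factor pomp, with 0.03, did not pass. The small lid subunit sem1, which the pattern does not match, spread from 500.4 to 1539 TPM within CFL alone and did not pass (adjusted p = 0.586).

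Of 32 tested genes of ubiquitin conjugation and of delivery to the proteasome, 11 were higher and 1 was lower in SFL, with a median of 0.31. These made up 37.5% of the list, where 19.5% of all genes tested were higher and 15.2% lower, with a median of 0.07. hspa8, the constitutive chaperone HSC70, had 4685, 3600.0 and 2641 TPM in SFL, against 1809, 1675 and 1410.1 TPM in CFL, and the ligases huwe1 and ubr4 had log2FCs of 0.94 and 0.82. ube4a, a chain-elongating ligase, was listed at 0 in all SFL libraries, against 23.6, 23.9 and 46.1 TPM in CFL. It passed the filter through CFL alone, and its log2FC was -4.94 with a pseudocount of 1 and -8.22 with 0.1. The count of higher genes was 6 without SFL replicate 2, 4 without CFL replicate 1, 1 without CFL replicate 2 and 2 without CFL replicate 3. The calls of hspa8 and huwe1 were lost without CFL replicate 2 (adjusted p = 0.0600 and 0.0573) or CFL replicate 3 (0.0531 for each), and that of ubr4 held with any 1 library left out. Another list covered the NRF1 response, by which cells short of proteasome activity raise all its subunits in mammals. It also held the separate transcription factor genes HSF1, stat3, nfyal, nfyba and nfyc, so its counts are not of that response alone. Of its 13 tested genes, 3 were higher in SFL (mafgb, bach1a and HSF1) and 0 lower by limma (0 also at an unadjusted p under 0.05). bach1a had a mean of 4.69 TPM in SFL and 2.32 TPM in CFL. The more abundant bach1b, at 87.8 and 92.9 TPM, did not pass (log2FC -0.09, adjusted p = 0.833). The higher genes made up 23.1% of this list, near the 19.5% over all genes tested. The count higher was 1 without SFL replicate 1 or CFL replicate 1 and 0 without CFL replicate 2, and nfe2l1a, the gene of NRF1 itself, did not pass (log2FC 0.60, adjusted p = 0.0892).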

How the data were processed

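RNA-seq was done on 6 polyA libraries, 3 of SFL and 3 of CFL, grouped by title. The authors aligned single reads with STAR 2.7.3a and, with RSEM, deposited TPM per gene, which holds no counts, so depth is unknown and the study's count test was not repeated. The study's methods name a UCSC genome and Ensembl gene models, and no assembly version. The methods text names adult tissues as the RNA source, while library names and passages describe cell lines. Genes that reached 0.2 TPM in any library were compared on log2(TPM + 1), which understates changes of low genes, with limma 3.58.1 (trend) in R 4.3.3. Tables and exact tests used Python 3.11.15. The fit was first tested on simulated data with known changes.

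Members, lists and roles were chosen with earlier results of these data known. Genes named are the immunoproteasome genes and their partners, members past the test, those at the extremes of each role in fold change or TPM, and listed genes past the test or most abundant; others were named after values were seen. Other settings tried were pseudocounts (0.1 or 0.5), no filter, a floor of 1 TPM in 3 or more libraries, median-ratio and quantile scaling, no trend, a replicate block, the later passages and each library left out. RefSeq symbols matched 53 of 57 rows, and no sequences were used.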

Additional observations from a re-analysis of the deposited data

How the results depend on the processing

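All 11 members past the test stayed past it under both other pseudocounts, no filter, the stricter filter, median-ratio and quantile scaling and no trend; scaling moved the median of all genes by -0.07 (median-ratio) and -0.09 (quantile). Median-ratio scaling added psmd3, psmb1 and psmb12, and quantile scaling psma5 and psmb12. Replicate numbers did not pair the libraries in their deviations from the line mean of each gene. Those deviations correlated at -0.22, 0.08 and -0.07 between same-numbered libraries of the lines. With the replicate block psmc6 (adjusted p = 0.0561), psma1 (0.0604) and psme1 (0.0624) did not pass. The block gave 1 partner gene higher and 1 lower in SFL, 4 higher ubiquitin genes, 0 higher MHC class I genes, 1 higher interferon gene and 2 lower leukocyte genes. In the later passages alone 1 member was higher and 4 were lower, and higher counts were 0 for partners, NRF1, MHC class I and interferon genes and 1 for ubiquitin genes, with 0 partner and 11 interferon genes lower. Quantile scaling gave 7 higher and 2 lower ubiquitin genes, 1 higher NRF1 gene and 0 higher interferon genes. Median-ratio scaling gave 0 higher interferon genes, the stricter filter 1 higher interferon gene and 0 lower leukocyte genes, and no filter 0 higher MHC class I genes. The cause was not tested.

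Without the member with the highest TPM, the SFL over CFL ratio of sums was 0.494 for the immunoproteasome genes and turned to 1.1005 for the activators and 1.02 for the chaperones. With 1 library left out, counts ranged from 1 to 4 members higher and 4 to 10 lower, 1 to 2 partner genes higher and 0 to 2 lower, 1 to 12 ubiquitin genes higher and 1 to 2 lower, 0 to 3 NRF1 genes, 0 to 1 MHC class I genes and 0 to 1 interferon genes higher, and 0 to 1 endothelial genes lower.

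Among the members and the other genes named, direction turned only in genes that did not pass the test. With median-ratio and quantile scaling, log2 fold changes were -0.0445 and -0.0929 for psmc1b, -0.0599 and -0.0648 for psmc3ip, -0.0704 and -0.115 for psme3ip1, -0.0875 and -0.127 for psme4b, -0.0498 and -0.0963 for rad23b, -0.0762 and -0.11 for psma6b, -0.0782 and -0.114 for pomp, and -0.018 and -0.0643 for hsd17b8; with quantile scaling rps27a had 0.166 and rxrba -0.003. In the later passages bach1b had 0.26, nfyba 0.0963, psma8 0.0824, psmd13 0.116, psmd4a 0.18, tap1 0.122, hsd17b8 -0.102 and psme3ip1 -0.0367. With 1 library left out the log2 fold change ran from -0.31 to 0.15 for bach1b, -0.55 to 0.20 for erg, -0.20 to 0.0208 for nfyba, -0.0256 to 0.14 for psmc1b, -0.26 to 0.25 for psmc3ip, -0.11 to 0.31 for psme3ip1, -0.13 to 0.14 for psme4b, -0.0284 to 0.17 for rad23b, -0.0667 to 0.74 for sem1, -0.0228 to 0.32 for PSMA7, -0.35 to 0.23 for PSMD13, -0.14 to 0.13 for psmd13, -0.34 to 0.0654 for psmd4a, -0.15 to 0.0831 for psmd9, -0.26 to 0.0447 for psmg2, -0.0972 to 0.0982 for psma6b, -0.22 to 0.0904 for psma8, -0.13 to 0.17 for pomp, -0.16 to 0.37 for hsd17b8, -0.0705 to 0.26 for rxrba and -0.24 to 0.0606 for tap1, and the psmb10 to psmb7 log2 ratio differed by -0.31 to 0.0437. Depth is unknown, and 3 libraries per line limit the precision.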

Other observations

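Other liver cell markers were read beside the proteasome genes. Of all genes tested, 19.5% were higher and 15.2% lower in SFL at the same threshold. Of 4 cholangiocyte genes tested, 3 were higher and 1 was lower in SFL, and the 7 rows of that list summed to 4509 to 6007 TPM in SFL and 1051 to 1299 TPM in CFL. Nearly all of that sum came from 1 krt8 row (mean 3679 TPM in SFL and 637 TPM in CFL) and krt18a.1 (mean 1581 TPM in SFL and 351 TPM in CFL), keratins of simple epithelium in general; epcam and sox9b reached at most 0.03 TPM, and hnf1bb was the lower gene (mean 7.26 TPM in SFL and 193 TPM in CFL). Of 5 stellate or fibroblast genes, 1 was higher and 1 lower, with sums of 345 to 1451 TPM in SFL and 643 to 1274 TPM in CFL. Of 6 hepatocyte genes tested, 4 were higher in SFL and 0 lower by limma (0 also at an unadjusted p under 0.05), and of 3 endothelial genes 0 passed by limma, also at an unadjusted p under 0.05. Their part in the differences of the proteasome genes was not tested.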
